A study of Mus musculus with 8 samples.

Results

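Enteroendocrine cells are the hormone-secreting cells of the gut epithelium, and 10 genes that mark them were followed here in mouse intestinal organoids with and without RANKL. They were taken by symbol from the 54532 genes of the deposited count table: 2 granins (Chga and Chgb), 7 peptide hormone precursors (Gcg, Gip, Cck, Sct, Sst, Ghrl and Tac1) and Tph1, the rate-limiting enzyme of serotonin synthesis in the gut. All 10 were found, and all 10 were among the 9971 genes that passed the filter on low counts. Enteroendocrine cells are scattered singly among the other epithelial cells and arise from crypt progenitors that switch on the transcription factor Neurog3. They store peptide precursors in dense-core granules packed with granins, cut them into active hormones with prohormone convertases, and release them when nutrients, microbial products or nerves signal. Subtypes are classically told apart by their main product, although single cells often hold several, and one cell can change its main hormone as it moves from crypt to villus.

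The data are bulk 3′ mRNA sequencing of 4 control and 4 RANKL-treated libraries of mouse intestinal organoids. Organoids are self-renewing epithelial cultures grown from crypts in a gel with no stromal cells around them. RANKL, a cytokine of the tumour necrosis factor family, acts through the receptor RANK. The study's methods describe a culture medium with EGF, NOGGIN and R-spondin, and how much RANKL these cultures received, and for how long, is not given in the sources used here. The labels number the libraries within a group but name no genotype, animal, sex or culture, so p-values measure only the spread between these samples, which may be technical.

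Each library held between 583663 and 7807298 counts, and control replicate 4 and RANKL replicate 1, at 583663 and 613135 counts, were the 2 shallowest. Control libraries were deeper as a group, with 2.81 times the counts in all. Levels are given in CPM, in which each library is brought to the same total with TMM scaling factors, and since only the end of each transcript is read, CPM of different genes carry no length term. A gene was called changed when edgeR's quasi-likelihood test gave a Benjamini-Hochberg adjusted p under 0.05 over the 9971 genes. The label of an epithelial culture held in the data: all 10 listed epithelial markers were tested, and their summed level was between 9047 and 9875 CPM in control and between 8407 and 8994 CPM in RANKL libraries, every RANKL library being below every control library. The part of that difference in the results was not tested. Mast cells and neurons can also make several of these messages. Of 10 mast cell markers 9 had 0 counts in all 8 libraries, Kit being the exception, and the 12 markers of enteric neurons and glia summed to between 18.0 and 34.5 CPM in control and between 17.2 and 32.3 CPM in RANKL libraries, with Uchl1, Sox10 and Gfap at 0. The 14 markers of stroma and immune cells summed to between 5.98 and 24.1 CPM in control and between 22.7 and 30.7 CPM in RANKL libraries, with Dcn, Cdh5, Cd3e and Cd79a at 0. The only one with enough counts to test was Pdgfrb, which was higher with RANKL at a log2 fold change of 2.53, and its part in the results was not tested.

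With RANKL, the messages of the incretin Gip, of Cck and of Sct were higher by folds of 1.30 to 1.37, and no hormone or granin was lower past the threshold. Of the 10 genes, 3 were called higher, or 30.0%, against 13.6% of all 9971 genes tested, and 0 were called lower, against 12.4%. With no filter on low counts 0 of the 10 were called higher, against 5.24% of all genes then tested, and at an adjusted p of 0.01 also 0, against 9.32%. The granins Chga and Chgb, which most enteroendocrine subtypes share, differed by less than the spread between libraries. The median log2 fold change of the 10 was 0.23, beside 0.00 over all genes tested, with 7 values above 0 and 3 below. None passed 0.5 on the log2 scale in size, whereas 21.9% of all tested genes did. In bulk samples, fewer cells of a type and less RNA per cell cannot be told apart, so none of these values says whether cell number or content differed.

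**Figure D1:**
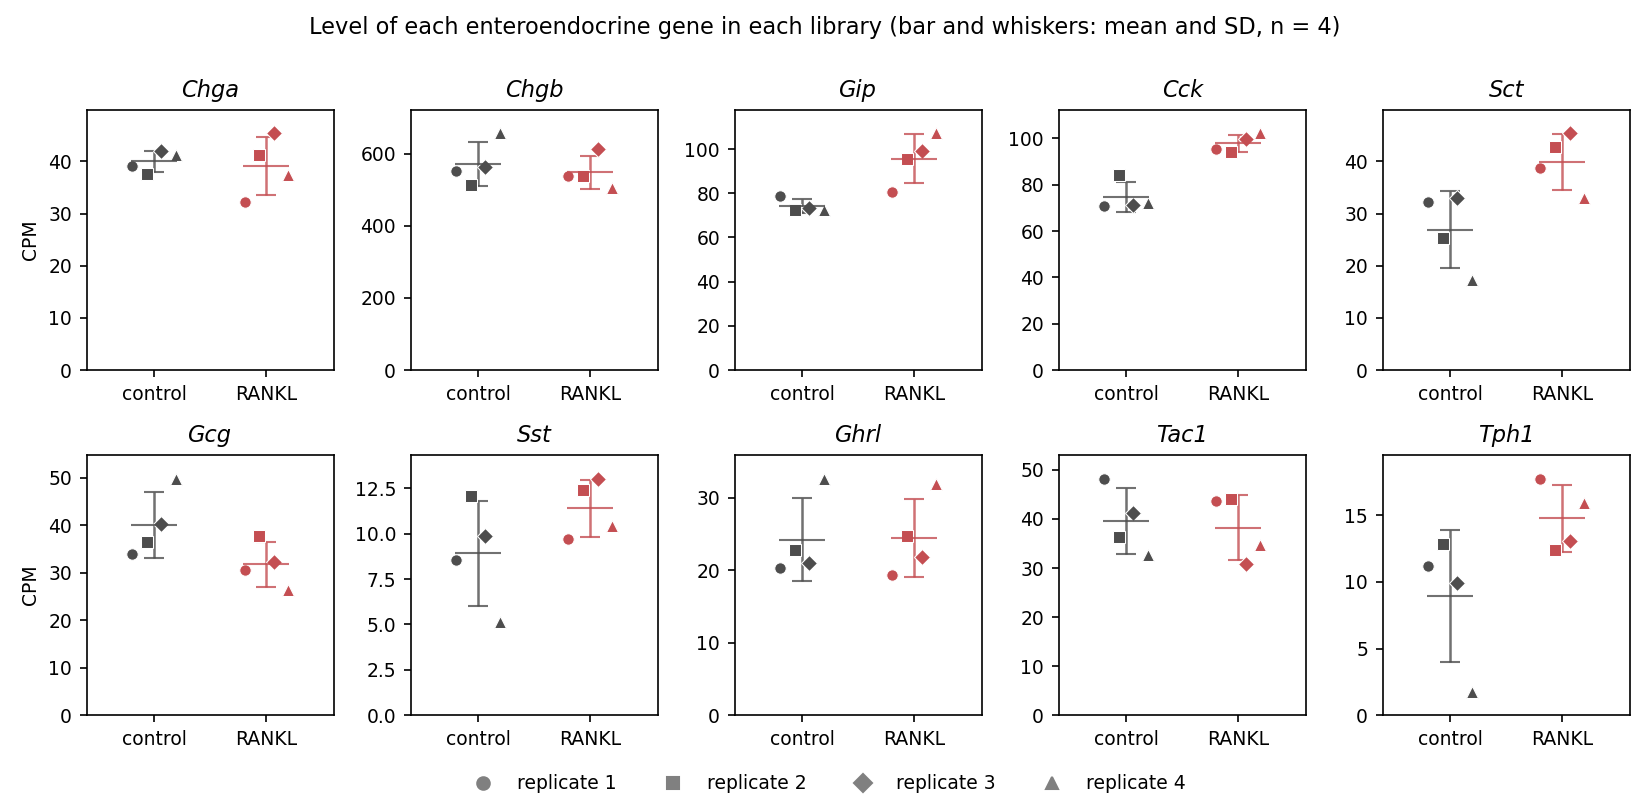
Level of each of the 10 genes in CPM (vertical axes from 0, a separate scale for each gene) in the 4 control libraries (grey) and the 4 RANKL libraries (red), with a marker shape for each replicate number and the mean and SD of each group. The RANKL libraries lie above all control libraries for Gip, Cck and Sct, and the groups overlap for the other 7 genes.

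The granins are acidic proteins that fill dense-core granules and help sort and condense the hormones stored there. Chga (ENSMUSG00000021194, chr12:102554969-102565028, plus strand, in build GRCm38 which holds for every gene named here) was at 39.1, 37.6, 42.1 and 41.3 CPM in control replicates 1 to 4, and at 32.3, 41.3, 45.4 and 37.3 CPM in RANKL replicates 1 to 4. The RANKL values straddled the control values, from below the lowest control library to above the highest. The fitted log2 fold change was 0.01 (standard error 0.15, adjusted p = 0.971), and the 95% confidence interval of the fold ran from 0.817 to 1.24. Chgb (ENSMUSG00000027350, chr2:132781278-132795079, plus strand) was far more abundant, at 551, 514, 562 and 657 CPM in control and 539, 539, 612 and 505 CPM in RANKL libraries. Its highest library was control replicate 4 and its lowest RANKL replicate 4, with the remaining libraries interleaved. The log2 fold change of Chgb was -0.04 (standard error 0.10, adjusted p = 0.783), with a fold between 0.844 and 1.11 at 95% confidence. Together the granins summed to 611 ± 62.3 CPM in control and 588 ± 49.3 CPM in RANKL libraries (SD, n = 4 each), nearly all of it Chgb.

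Gip, Cck and Sct encode hormones of the upper small intestine. Glucose-dependent insulinotropic polypeptide, the product of Gip in K cells, raises insulin release after a meal. Gip (ENSMUSG00000014351, chr11:96024545-96030831, plus strand) was at 78.9, 72.5, 73.2 and 72.2 CPM in control and at 80.7, 95.7, 99.1 and 107 CPM in RANKL libraries. Every RANKL library was above every control library, but RANKL replicate 1, one of the 2 shallowest libraries, stood only just above control replicate 1. The fold was 1.30 (95% interval 1.104 to 1.54, log2 fold change 0.38, standard error 0.12, adjusted p = 0.0150). The call was lost without RANKL replicate 4 (log2 fold change 0.32, adjusted p = 0.0824) and with no filter on low counts (adjusted p = 0.0727).

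Cholecystokinin, the product of Cck in I cells, contracts the gallbladder and drives pancreatic enzyme secretion. Cck (ENSMUSG00000032532, chr9:121489824-121495694, minus strand) was at 70.8, 84.3, 71.2 and 72.2 CPM in control and at 95.3, 94.3, 99.6 and 102 CPM in RANKL libraries. The 4 RANKL values lay close together and above all control values, the nearest of which was control replicate 2. The fold was 1.31 (95% interval 1.11 to 1.55, log2 fold change 0.39, standard error 0.12, adjusted p = 0.0117). Leaving out any 1 library kept the call, and it was lost with no filter on low counts (adjusted p = 0.0596) and with library depth as a covariate (adjusted p = 0.0618).

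Secretin, which stimulates bicarbonate secretion by the pancreas, is the product of Sct (ENSMUSG00000038580, chr7:141278330-141279133, minus strand). Its level was 32.2, 25.2, 32.9 and 17.2 CPM in control and 38.7, 42.7, 45.4 and 33.0 CPM in RANKL libraries. The groups did not overlap, but RANKL replicate 4 exceeded control replicate 3 by less than 1 CPM, and the lowest value, control replicate 4, rests on 10 counts. Its fold was 1.37 (95% interval 1.08 to 1.75, log2 fold change 0.46, standard error 0.17, adjusted p = 0.0451), just inside the threshold. The rise of Sct was the least settled of the 3, with the call lost in 10 of 18 alternatives: the DESeq2 Wald test gave an adjusted p of 0.147 and limma-voom 0.0565, and leaving out control replicate 2 or 4 or RANKL replicate 1, 2 or 3 gave between 0.0639 and 0.176. Compared by exact permutation of the 8 libraries (two-sided, on CPM), Gip, Cck and Sct each had p = 0.0286, the smallest that 70 assignments of 4 against 4 libraries allow. Over all tested genes, 13.1% had every RANKL library above every control library.

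**Figure D2:**
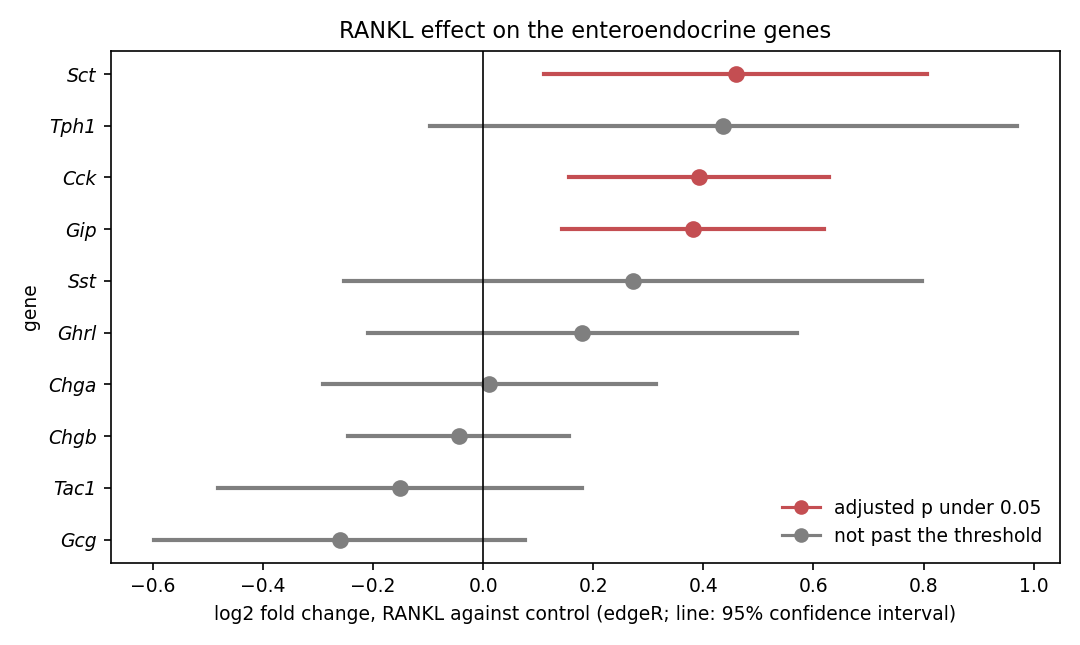
Log2 fold change of RANKL against control from edgeR (horizontal axis) for each of the 10 genes (vertical axis), with lines for the 95% confidence interval and red for an adjusted p under 0.05. The intervals of Gip, Cck and Sct lie above 0 and those of the other 7 genes include 0.

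The stretch just upstream of the start of each of these genes is where factors of the enteroendocrine lineage can act, and is shown for the 3 genes that rose and for Chga, which did not pass the test. Neurog3 and Neurod1 bind E-boxes, whose core is CANNTG. All 10 genes have an entry among the RefSeq promoter sequences for build GRCm38.p6, and the 250 bases before the start are printed 5′ to 3′ on the strand of the gene, with E-boxes in capitals. The RefSeq start of Chga lies upstream of the gene start in GENCODE. Gip is at chr11:96024295-96024544, plus strand, Cck at chr9:121495695-121495944, minus strand, Sct at chr7:141279134-141279383, minus strand, and Chga at chr12:102554691-102554940, plus strand.
Gip: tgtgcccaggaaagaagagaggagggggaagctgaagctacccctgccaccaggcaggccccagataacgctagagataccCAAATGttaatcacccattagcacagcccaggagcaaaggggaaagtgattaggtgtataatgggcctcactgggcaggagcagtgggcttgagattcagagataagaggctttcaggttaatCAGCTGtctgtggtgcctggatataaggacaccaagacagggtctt
Cck: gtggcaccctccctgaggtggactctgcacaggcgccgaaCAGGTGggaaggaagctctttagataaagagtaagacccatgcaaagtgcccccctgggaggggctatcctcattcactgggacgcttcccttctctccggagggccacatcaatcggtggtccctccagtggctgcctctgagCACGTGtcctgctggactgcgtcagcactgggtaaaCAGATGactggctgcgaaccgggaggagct
Sct: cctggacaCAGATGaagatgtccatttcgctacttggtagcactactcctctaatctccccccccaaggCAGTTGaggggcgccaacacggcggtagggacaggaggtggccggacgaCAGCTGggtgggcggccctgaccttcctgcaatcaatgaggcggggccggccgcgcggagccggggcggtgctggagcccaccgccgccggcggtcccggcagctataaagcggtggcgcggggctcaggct
Chga: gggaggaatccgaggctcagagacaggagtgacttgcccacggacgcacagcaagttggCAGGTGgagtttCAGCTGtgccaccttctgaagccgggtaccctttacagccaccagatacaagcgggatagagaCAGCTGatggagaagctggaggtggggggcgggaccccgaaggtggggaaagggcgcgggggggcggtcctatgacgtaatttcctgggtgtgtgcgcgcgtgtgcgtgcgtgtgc

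Gip held 2 E-boxes in this window, at 169 and 46 bases before the start, and Cck, Sct and Chga held 3 each. Such a motif is common, since 66.2% of all 32851 RefSeq windows of this length hold at least 1, and it reads the same on both strands. Gip further held 2 matches to the GATA motif AGATAA, searched on both strands, at 188 and 69 bases before the start. Cck and Tac1 held 1 each. By window, 3 of the 14 windows of the 10 genes held a match, against 9.99% of all windows. The core of the cAMP response element, TGACG on either strand, was present in windows of 6 of the 10 genes, namely Chga, Chgb, Cck, Sst, Tac1 and Tph1. By window, it was in 7 of the 14 and in 17.8% of all windows. The full palindrome TGACGTCA, which contains that core, occurred in the windows of Chgb and Sst, or 2 of the 14, and in 1.55% of all windows. None of the 14 windows of the 10 genes, Ghrl and Tph1 having several starts, held a match to a consensus NF-κB site, which 3.9% of all windows hold. These are matches of letters in 250 bases, and binding was not measured.

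The other 4 peptide genes and Tph1 did not pass the test. Gcg encodes proglucagon, cut in L cells into the glucagon-like peptides. Gcg (ENSMUSG00000000394, chr2:62474530-62483650, minus strand) was at 34.0, 36.5, 40.3 and 49.9 CPM in control and 30.7, 37.9, 32.3 and 26.4 CPM in RANKL libraries. All 4 RANKL values were below the control mean of 40.2 CPM, but RANKL replicate 2 was above the lowest 2 control values and the groups overlapped. The log2 fold change was -0.26 (95% interval -0.60 to 0.08, adjusted p = 0.263; exact permutation p = 0.0857), so the fold may lie anywhere between 0.661 and 1.05.

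Tac1 (ENSMUSG00000061762, chr6:7554879-7565834, plus strand) encodes the precursor of substance P and neurokinin A, found in serotonin-producing enterochromaffin cells and in neurons. It was at 48.3, 36.2, 41.3 and 32.7 CPM in control and 43.6, 44.0, 30.8 and 34.6 CPM in RANKL libraries, with the groups interleaved. Its log2 fold change was -0.15 (95% interval -0.48 to 0.18, adjusted p = 0.538). Tph1 (ENSMUSG00000040046, chr7:46644641-46672537, minus strand), the serotonin-synthesis enzyme of enterochromaffin cells, was at 11.2, 12.9, 9.88 and 1.72 CPM in control and 17.8, 12.4, 13.04 and 15.9 CPM in RANKL libraries. Of these, 3 RANKL libraries were above all control libraries, and the lowest value, control replicate 4, is 1 count. Tph1 had a log2 fold change of 0.44 (95% interval -0.10 to 0.97, adjusted p = 0.233), a fitted value close to that of Sct with a wider interval.

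Somatostatin, the product of Sst in D cells, restrains the release of other gut hormones. Sst (ENSMUSG00000004366, chr16:23889573-23890958, minus strand) was at 8.53, 12.1, 9.88 and 5.16 CPM in control and 9.69, 12.4, 13.04 and 10.4 CPM in RANKL libraries. The RANKL values were all above the control mean of 8.91 CPM and overlapped the control range, and the lowest library held 3 counts. The log2 fold change of Sst was 0.27 (95% interval -0.25 to 0.80, adjusted p = 0.477). Ghrl (ENSMUSG00000064177, chr6:113716119-113719880, minus strand) encodes the appetite hormone ghrelin. Its level was 20.4, 22.8, 21.0 and 32.7 CPM in control and 19.4, 24.8, 21.9 and 31.9 CPM in RANKL libraries, nearly the same spread in both groups. For Ghrl the log2 fold change was 0.18 (95% interval -0.21 to 0.57, adjusted p = 0.534). The mean levels were 24.2 CPM in control and 24.5 CPM in RANKL libraries, and without RANKL replicate 4 the fitted value was 0.01.

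For all 10 genes the interval stayed within 1 on the log2 scale in either direction, and for Chga, Chgb and Tac1 it stayed within 0.5. In this fit a change to 2 times or to 0.5 times the control level was therefore outside the interval of every gene. This does not carry over to every alternative. With library depth as a covariate the fitted log2 fold changes were 0.80 for Tph1 and 0.75 for Sct, and intervals of the alternatives are not given.

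Chgb was the most abundant of the 10 in all 8 libraries, higher on average than 97.4% of the tested genes, whereas Sst was higher than 15.2% of them. In control libraries the order of mean levels after Chgb was Cck (74.6 ± 6.45 CPM), Gip (74.2 ± 3.18), Gcg (40.2 ± 6.97), Chga (40.0 ± 2.05), Tac1 (39.6 ± 6.76), Sct (26.9 ± 7.34), Ghrl (24.2 ± 5.73), Tph1 (8.92 ± 4.96) and Sst (8.91 ± 2.90; SD, n = 4 each). The steps from Chgb to Cck, from Gip to Gcg and from Ghrl to Tph1 were the only ones between neighbours whose ranges did not overlap. In RANKL libraries the order was Chgb, Cck, Gip, Sct, Chga, Tac1, Gcg, Ghrl, Tph1 and Sst, with Sct above Chga and Gcg below Tac1, unlike in control, both within stretches of neighbours whose ranges overlapped.

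The mix of peptide messages can be read without a library scale, as the share of each gene in the summed counts of the 7 peptide genes. This is a description with no test, and shares move against each other because they sum to a whole. Gip, Cck and Sct, summed after their calls were known, made up 60.9 ± 2.45% of these counts in control and 68.8 ± 2.37% in RANKL libraries (SD, n = 4 each). The highest control library (62.8%, exact binomial 95% interval 59.9 to 65.7) was below the lowest RANKL library (66.1%, 61.9 to 70.2), with their counting intervals overlapping. The share of Gcg was 13.9 ± 2.66% in control and 9.37 ± 1.30% in RANKL libraries. Its lowest control value was 11.6% (10.3 to 12.98) and its highest RANKL value 10.8% (8.21 to 13.8), apart by less than their counting intervals. Taken singly, the shares of Gip, Cck, Sct, Sst, Ghrl and Tac1 each overlapped between the groups, and that of Gcg did not. How often shares within other sets of genes are without overlap was not counted. Which shares overlap depends on the sum used. Of the counts of all 10 genes, the share of Gcg overlapped (lowest control value 3.80%, highest RANKL value 4.01%), and those of Gip and Sct did not. The 7 peptide messages summed to 289 ± 4.68 CPM in control and to 339 ± 14.7 CPM in RANKL libraries, with no overlap between 282 to 293 and 318 to 352 CPM. This sum contains Gip, Cck and Sct and is no separate result. The sum of all 10 genes overlapped, at 854 to 982 CPM in control and 903 to 1013 CPM in RANKL libraries. Binomial intervals cover counting error only and leave out differences between libraries. Reads copied by PCR are counted as reads, which makes these intervals too narrow.

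**Figure D3:**
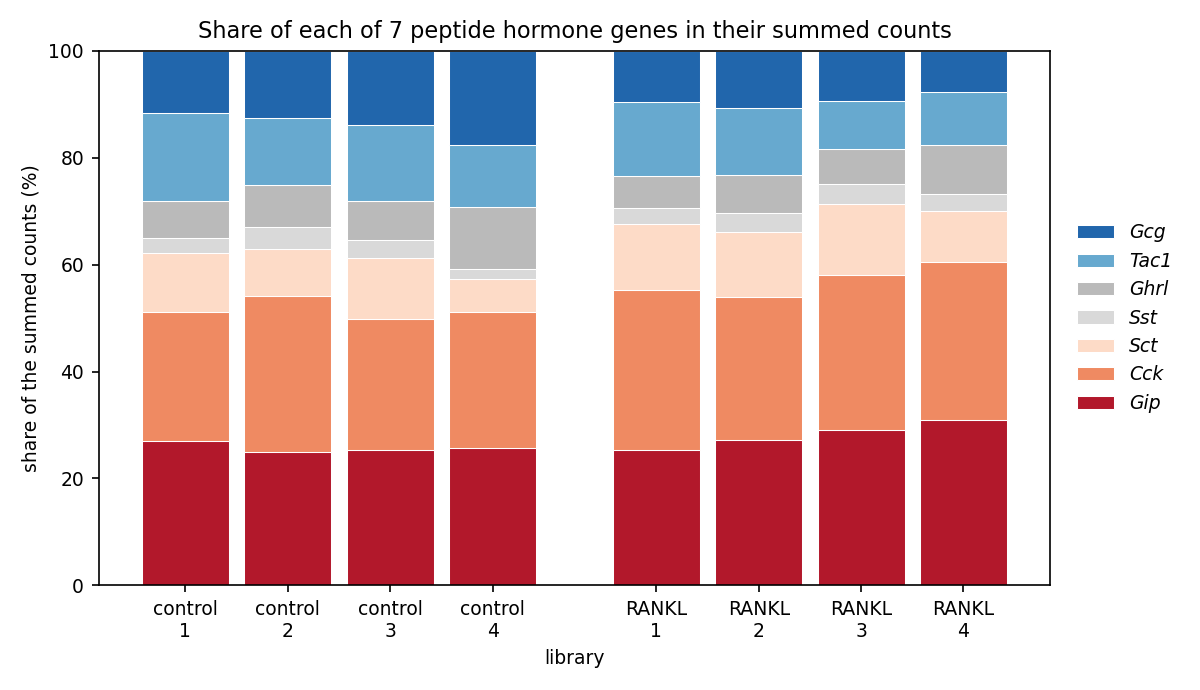
Share of each of 7 peptide hormone genes (colours) in their summed counts (vertical axis, percent) in each of the 8 libraries (horizontal axis). The lower 3 segments, Gip, Cck and Sct, reach between 57.3% and 62.8% in control and between 66.1% and 71.3% in RANKL libraries, and the top segment, Gcg, is narrower in the RANKL libraries.

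Against Chga as a reference within each library, the mean log2 ratio of Gip was 0.89 ± 0.11 in control and 1.29 ± 0.17 in RANKL libraries, and that of Sct -0.61 ± 0.43 and 0.03 ± 0.18, both without overlap (SD, n = 4 each). The ratio of Cck to Chga, 0.89 ± 0.18 and 1.32 ± 0.20 on the same scale, overlapped by 1 library on each side. That of Chgb to Chga was 3.82 ± 0.10 and 3.80 ± 0.15. The ratios of Chgb, Gcg, Sst, Ghrl, Tac1 and Tph1 to Chga overlapped between the groups. Chga rests on 24 counts in control replicate 4 and on 20 in RANKL replicate 1, and Sct in control replicate 4 on 10. How many of all genes have a ratio to Chga without overlap was not counted. The 5 genes whose log2 CPM followed Chga most closely over the 8 libraries, among 6637 tested genes with a mean of at least 20 CPM, were Ppp2r5e (Pearson r = 0.93), Kat8 (0.93), Parp11 (0.92), Zfp260 (0.91) and Rab3d (0.90). This describes likeness over 8 libraries that also share depth and group, with the highest of 6637 values picked and no test made. Chga itself ranged only from 32.3 to 45.4 CPM. Of these genes only Rab3d, a small GTPase of secretory granules, is on any of the enteroendocrine lists. Chgb, the other granin, had r = 0.61 with Chga.

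Around the hormones themselves, 103 further genes of enteroendocrine function were listed in 7 groups, from prohormone cleavage to cell fate. Bulk samples do not show which cells these messages came from, so a change in one need not be a change in enteroendocrine cells. Of these, 38 had enough counts to test, 5 were called higher (13.2%) and 6 lower (15.8%), near the shares over all tested genes given above (13.6% and 12.4%), and their median log2 fold change was 0.04. None of 15 further gut peptide genes could be tested. Gast, Vip, Nmu and Calca among them had 0 counts in all 8 libraries, which allows up to 3 counts in each, or between 0.384 and 5.14 CPM depending on the depth of the library.

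**Figure D4:**
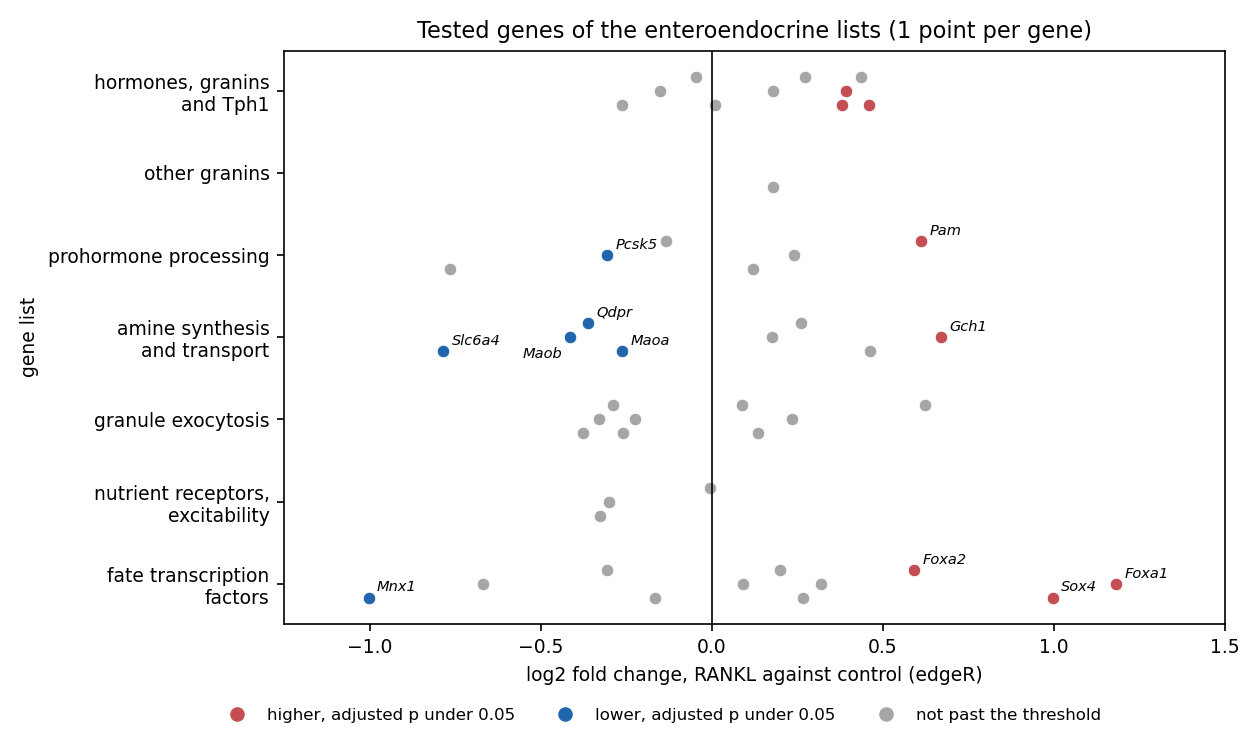
Log2 fold change of RANKL against control from edgeR (horizontal axis) for the 10 genes and for the tested genes of 6 further lists (vertical axis), 1 point per gene, red for higher and blue for lower at an adjusted p under 0.05. Named points outside the hormone list are the 11 called genes, and the lists of granule exocytosis and nutrient receptors hold no coloured point.

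Prohormone processing had 6 of 9 genes tested, with 1 higher and 1 lower, or 16.7% each, against 13.6% and 12.4% of all genes. Pam, the enzyme that amidates the C terminus of peptides such as cholecystokinin and secretin, was at 28.4, 32.5, 26.9 and 39.6 CPM in control and 53.3, 53.7, 38.07 and 43.4 CPM in RANKL libraries. Its rise by 0.61 on the log2 scale passed the test (standard error 0.16, adjusted p = 0.00489), although RANKL replicate 3 was below control replicate 4, and the call was lost with library depth as a covariate (adjusted p = 0.187). Pcsk5, a convertase also made outside endocrine cells, fell by 0.31 on the log2 scale, from 266 ± 28.4 to 215 ± 9.16 CPM (SD, n = 4 each, adjusted p = 0.0259). Without control replicate 3, RANKL replicate 2 or RANKL replicate 4, the call of Pcsk5 was lost, as it was with library depth as a covariate (adjusted p = 0.0660) and without both shallowest libraries (0.0551). The main convertase of enteroendocrine cells, Pcsk1, named after its values were seen, was at 9.95 ± 3.87 and 11.6 ± 2.38 CPM and did not pass (adjusted p = 0.599).

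Of 10 genes of amine synthesis and transport 8 were tested, with 1 called higher and 4 lower, or 12.5% and 50.0% of those tested, against 13.6% and 12.4% of all genes. Slc6a4, the transporter that takes serotonin back up into cells, was at 31.2, 36.8, 34.0 and 34.4 CPM in control and 14.5, 20.6, 21.9 and 18.7 CPM in RANKL libraries. The groups were well apart, with the highest RANKL library below the lowest control library, and the difference of -0.78 on the log2 scale (standard error 0.17, adjusted p = 0.00101) kept its call in all 17 alternatives that gave a value. Maob and Maoa, which degrade amines, were lower at log2 fold changes of -0.41 (adjusted p = 0.0130) and -0.26 (adjusted p = 0.0465). Maoa is outside the rule for naming and was named after its values were seen, and the call of Maob was lost without RANKL replicate 3 or 4. Tetrahydrobiopterin is the cofactor of Tph1. Its first synthetic enzyme, Gch1, was higher (11.6 ± 3.61 to 19.0 ± 0.522 CPM, log2 fold change 0.67, adjusted p = 0.0371), and Qdpr, which regenerates it, was lower (240.1 ± 19.7 to 191 ± 19.2 CPM, log2 fold change -0.36, adjusted p = 0.00918). The rise of Gch1 lost its call in 11 of 17 alternatives, and the fall of Qdpr lost its call with library depth as a covariate (adjusted p = 0.0553).

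Of 20 genes of granule exocytosis 9 were tested, and of 20 nutrient receptors and excitability genes 3. In either direction 0 passed, where 13.6% of all genes tested were higher and 12.4% lower. The medians of the 2 lists were -0.22 and -0.30 on the log2 fold change scale. The only further granin with enough counts, Scg2, had a log2 fold change of 0.18 (95% interval -0.34 to 0.70, adjusted p = 0.651).

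Of 23 transcription factors of enteroendocrine fate 11 were tested, and 3 were higher and 1 lower. These are 27.3% and 9.09% of those tested, against 13.6% and 12.4% of all genes. Sox4, a factor of early secretory progenitors, rose from 419 ± 15.9 to 836 ± 57.9 CPM (log2 fold change 1.00, standard error 0.09, adjusted p = 7.4e-10). The forkhead factors Foxa1 and Foxa2, on which the formation of L and D cells in mice depends, rose by log2 fold changes of 1.18 (adjusted p = 0.00273) and 0.59 (adjusted p = 0.00167). Mnx1, a homeobox factor, was at 21.3, 20.4, 17.7 and 15.5 CPM in control and 6.46, 8.95, 10.95 and 10.4 CPM in RANKL libraries. Its groups were clearly apart, the fitted difference being -1.003 on the log2 scale (standard error 0.23, adjusted p = 0.00117), and the call was lost with library depth as a covariate (adjusted p = 0.0822). The factors that start and carry the enteroendocrine programme, named after their values were seen, did not pass: Neurog3 was at 13.6 ± 1.85 and 15.9 ± 5.82 CPM (adjusted p = 0.819) and Neurod1 at 11.9 ± 2.54 and 10.5 ± 1.91 CPM (adjusted p = 0.399; SD, n = 4 each).

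Markers of neighbouring epithelial lineages were read in the same libraries, where 13.6% of all tested genes were called higher and 12.4% lower. Most of them did not pass the test. Of 13 goblet cell markers, all tested, 2 were higher and 1 lower. Guca2a (log2 fold change 1.75, adjusted p = 1.8e-12) and Ccl9 (1.29) rose, and the goblet cell transcription factor Spdef (-0.57, adjusted p = 0.0315) fell. Over the 13 the median log2 fold change was -0.01, and bulk samples do not show which cells made Guca2a and Ccl9. The call of Spdef was lost with the DESeq2 Wald test (adjusted p = 0.160), the replicate block (0.0646) and library depth as a covariate (0.245), and without control replicate 3, RANKL replicate 2 or RANKL replicate 4. Of 18 tuft cell markers 2 could be tested and 1, Cd24a, which other secretory progenitors also express, was higher (log2 fold change 1.49). Paneth cell markers had 1 of 10 tested genes higher (Defa22) and 1 lower (Defa17), and since these defensins are near-identical copies their counts are uncertain. Defa22 had a log2 fold change of 0.54 (adjusted p = 0.0406), which was 0.29 without RANKL replicate 4 (adjusted p = 0.378), and its call was also lost with the Wald test, with the depth covariate and without control replicate 2 or 3. Enterocyte markers had 1 of 12 higher (Apoa1) and 2 lower (Mttp and Slc2a2). The call of Slc2a2 was lost with library totals alone (adjusted p = 0.0534), with the Wald test (0.117) and without control replicate 2, 3 or 4 or RANKL replicate 2, 3 or 4, and that of Apoa1 with the depth covariate (0.0560) and without both shallowest libraries (0.0605). The epithelial markers had 1 of 10 higher (Cdx1) and 3 lower (Krt18, Cldn7 and Krt19), the call of Krt19 being lost with the depth covariate (adjusted p = 0.192) and without control replicate 3 or RANKL replicate 1, 3 or 4. The part of these lineages in the levels of Gip, Cck and Sct was not tested.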

How the data were processed

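Deposited counts per gene were used for 4 control and 4 RANKL libraries, grouped by their labels. The authors made them from QuantSeq 3′ reads by trimming (BBDuk), removal of abundant sequences (bowtie2), alignment to GRCm38 (STAR) and strand-specific counting on Ensembl genes (featureCounts), and deposited the counts without normalization. Their own tests used DESeq2. Symbols and coordinates are those of GENCODE release M21 on the same build, which need not match the annotation counted on. The 123 genes without a symbol held 0.0193% of the counts.

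Using edgeR 4.0.16 (R 4.3.3), TMM factors, the filter on low counts and the quasi-likelihood test of RANKL against control were applied to all genes, with Benjamini-Hochberg adjustment over 9971 genes. CPM are given as mean ± SD over 4 libraries. Fitted folds give deeper libraries more weight and need not equal the ratio of mean CPM, in which every library counts the same. For a gene at 0, the floor is 3 counts, or 0.384 to 5.14 CPM by depth. Alternatives were DESeq2 1.42.0 size factors or library totals alone, the DESeq2 Wald test, limma 3.58.1 with voom, other filters, a replicate block, fits without each library or without both shallow ones, a depth covariate and an adjusted p of 0.01. The steps were tested on simulated data. Between libraries of one group, chi-square over its degrees of freedom was 1.29 to 13.1, so no pair was merged. Python 3.11.15 with pandas 2.3.3 handled the tables.

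The 10 genes, the lists and the tests were chosen with earlier results of these data known. Besides the 10 genes, up to 4 genes per list past the threshold with the largest absolute log2 fold change at a mean of at least 5 CPM were named, with the 5 most like Chga.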

Additional observations from a re-analysis of the deposited data

Results flagged for a closer look

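Among 68 groups of 4 values examined for a sample far from the others, 7 held one by Dixon's criterion, where chance alone gives about 1 in 20, or 3.4. Of the 10 enteroendocrine genes, Gip in control replicate 1 (78.9 CPM, next value 73.2) and Cck in control replicate 2 (84.3 CPM, next value 72.2) stood above the other control libraries, each toward the RANKL range. Leaving these libraries out gave log2 fold changes of 0.42 for Gip and 0.46 for Cck. A larger value follows from removing the highest control value and is no support for the rises. Among the related genes, Gch1 in RANKL replicate 3 (18.3 CPM, next 19.2), Maob in control replicate 3 (133 CPM, next 167) and Sox4 in RANKL replicate 4 (749.7 CPM, next 857) stood below their groups. Of the markers, Cldn7 in RANKL replicate 4 (849 CPM, next 1056) was low and Pdgfrb in RANKL replicate 3 (23.5 CPM, next 17.8) was high. No cause was tested.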

How the results depend on the processing

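Of 178 values of the 10 genes under the alternatives, 162 kept their direction and side of the threshold, or stayed outside it, and 16 calls were lost: 3 of Gip, 3 of Cck and 10 of Sct. The median log2 fold change of the 10 genes stayed between 0.14 and 0.28, and was 0.11 over the 8 that had at least 10 counts in every library. The count of 10 genes called higher fell from 3 to 0 with no filter on low counts, where 23836 genes were adjusted over, and to 0 at an adjusted p of 0.01. It was 2 or 3 in every fit that left out a library. Of the related genes, 11 were called (5 higher, 6 lower). With at least 10 counts in every library 6 were called (3 higher, 3 lower), with library depth as a covariate 5 (3 higher, 2 lower), and at an adjusted p of 0.01 7, of which 3 were lower. Leaving out each library in turn gave 7 to 11 related genes (3 to 6 of them lower), the fewest without RANKL replicate 4. Over all genes, 1232 were called lower, against 808 with the depth covariate, 707 at an adjusted p of 0.01, and 814 to 1234 with a library left out. The cause of these shifts was not tested. The replicate numbers showed no clear pairing of the libraries (correlations of deviations -0.06, -0.09, 0.22 and 0.02 over 5208 genes, and only replicate 3 matched its own number best). The check cannot tell whether libraries of the same number shared a culture, since counting noise in the shallow libraries lowers such correlations. The fit with the replicate block called the same number of genes, 3 of the 10, and 1362 higher and 1248 lower of all genes, with log2 fold changes of 0.36 for Gip, 0.38 for Cck and 0.56 for Sct. Depth limits the values of Sst, Tph1 and Sct in control replicate 4, which hold 3, 1 and 10 counts.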
